A study of Mus musculus with 6 samples.

Results

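The genes described here are 10 markers of tissue macrophages: C1qa, C1qb and C1qc, Csf1r, Adgre1, Cd163, Mrc1, Slc40a1, Lyz2 and Apoe. They were taken by name from the 12393 mouse genes that the arrays measured through a probe set annotated to exactly 1 gene symbol, and all 10 were found. Where several such probe sets measured a gene, the brightest on average is given and the rest were compared with it. The study exposed cultured fetal thymus to 2,3,7,8-tetrachlorodibenzo-p-dioxin (TCDD), an activator of the aryl hydrocarbon receptor (AHR), and asked what it does to cells that leave the thymus and to cells that stay. C57BL/6 lobes taken at day 15 of gestation were kept in organ culture for 6 days, to day 21, in medium changed every 2 days. CD4-CD8- emigrants (cells flushed off the lobes with buffer) were exposed to 10 nM TCDD (2 arrays, numbered 1 and 2). Other emigrants had the solvent dioxane (2 arrays, called 1 and 2 here). The label of dioxane 1 carries no number, so that number and its pairing with TCDD 1 were assigned here. CD4-CD8- thymocytes (cells ground out of the lobes) had 10 nM TCDD (1 array) or dioxane (1 array). For the thymocyte control the label gives 0.1% dioxane, and for the emigrant controls it gives no concentration. All groups share the strain, the culture and the magnetic-bead sort on CD4 and CD8, and each RNA came from pooled cells. A sort on CD4 and CD8 does not by itself remove myeloid cells that carry neither. No source says that arrays with the same label came from separate cultures, so a p-value here measures the spread between these arrays, which may be technical.

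Macrophages settle in most tissues and clear dead cells and debris, and in the thymus they take up the many thymocytes that die during selection. They depend on the growth factor receptor CSF1R, coat debris with the complement protein C1q, take it up through scavenger and mannose receptors, and return the iron and lipid they digest through ferroportin and apolipoprotein E. Many of their genes are driven by the transcription factor PU.1, which binds DNA at a purine-rich core.

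C1qb, C1qc and C1qa lie beside each other on chromosome 4, between Ephb2 and Epha8 in the RefSeq gene order. For 6 of the 10 genes RefSeq (GRCm38.p6) gave a promoter window of 250 bases before to 50 after a transcription start, and there were 8 windows in all, 3 of them for Apoe. These windows are shown for genes whose levels are described below, because PU.1 is known for macrophage promoters and AHR is the receptor of TCDD. GAGGAA, the PU.1 core searched (read as TTCCTC from the opposite strand), stood in 5 of the 8 windows: those of C1qb, C1qc and Mrc1 and 2 of the 3 of Apoe. The windows of Cd163 and Lyz2 held no such core. Of all 32544 windows of this length, with no chromosome left out, 28.1% held this core. GCGTG, the AHR core searched (CACGC from the opposite strand), stood in 0 of the 8 windows, against 32.6% of all windows. Both strands were searched, and since no window held the AHR core the motifs overlapped nowhere. A match is a description of letters only. The first windows of 4 genes follow 5′ to 3′ in the direction of the gene, with the PU.1 core in capitals: C1qb (chr4:136886151-136886450, minus strand), C1qc (chr4:136892865-136893164, minus strand), Mrc1 (chr2:14229164-14229463, plus strand) and Apoe (chr7:19699139-19699438, minus strand).
C1qb: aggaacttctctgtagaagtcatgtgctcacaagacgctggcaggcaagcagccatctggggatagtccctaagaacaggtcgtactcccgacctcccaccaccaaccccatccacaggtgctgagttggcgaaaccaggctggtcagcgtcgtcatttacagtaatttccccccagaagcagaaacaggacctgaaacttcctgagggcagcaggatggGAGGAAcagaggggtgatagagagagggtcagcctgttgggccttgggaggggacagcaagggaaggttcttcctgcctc
C1qc: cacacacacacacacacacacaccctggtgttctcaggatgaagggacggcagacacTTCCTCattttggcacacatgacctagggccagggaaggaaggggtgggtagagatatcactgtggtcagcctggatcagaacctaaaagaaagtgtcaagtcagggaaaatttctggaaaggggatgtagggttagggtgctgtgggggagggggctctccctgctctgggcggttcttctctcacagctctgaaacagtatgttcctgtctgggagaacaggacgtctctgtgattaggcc
Mrc1: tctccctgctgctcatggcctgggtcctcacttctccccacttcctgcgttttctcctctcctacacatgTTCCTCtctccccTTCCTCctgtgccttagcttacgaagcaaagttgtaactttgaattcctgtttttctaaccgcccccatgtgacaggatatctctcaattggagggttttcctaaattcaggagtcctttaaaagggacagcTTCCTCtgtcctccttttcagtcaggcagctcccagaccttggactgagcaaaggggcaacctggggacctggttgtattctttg
Apoe: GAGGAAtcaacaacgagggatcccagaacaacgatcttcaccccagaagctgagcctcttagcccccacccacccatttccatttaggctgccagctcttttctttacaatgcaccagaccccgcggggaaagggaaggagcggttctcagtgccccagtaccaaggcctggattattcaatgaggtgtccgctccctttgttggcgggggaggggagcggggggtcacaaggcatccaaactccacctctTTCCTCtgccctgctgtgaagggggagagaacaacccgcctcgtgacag
The window of C1qb held 1 core, that of C1qc 1, that of Mrc1 3 and that of Apoe 2. Spi1, the gene of PU.1 itself, was between 4.31 and 4.98 log2 units on all 6 arrays, close to the highest bacterial control probe set of each array. It lay above that probe set on the 4 emigrant arrays and below it on both thymocyte arrays. Spi1 was singled out after its values were seen.

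All values are RMA levels in log2 units, so a difference of 1 is a 2-fold difference. An array was taken to detect a gene where its value lay above the highest bacterial control probe set of that array, which was between 4.32 and 4.92. Before the members, the arrays themselves differed in ways that touch them. The emigrant array labelled TCDD 1 went against its label for most of the AHR target genes. For 5 AHR target genes the median difference was -0.01 between emigrant TCDD 1 and dioxane 1. It was 3.50 between TCDD 2 and dioxane 2, and 3.62 between the thymocyte arrays. Cyp1a1, the classic AHR target, had 4.22 on the emigrant array labelled TCDD 1 and 5.98 on TCDD 2, against 3.96 on dioxane 1 and 3.84 on dioxane 2, and the value on TCDD 1 lay below the bacterial controls of that array. Cyp1b1, another AHR target, had 5.90 on TCDD 1 and 8.95 on TCDD 2, against 4.66 on dioxane 1 and 4.72 on dioxane 2, so on TCDD 1 it was above both dioxane arrays. The main results that use TCDD 1 are also given without it or without the pair numbered 1, and for the other gene lists and the difference between sources this was chosen after seeing the data. Both emigrant arrays numbered 1 also had higher levels of genes of other blood cells. The summed linear level of 11 neutrophil granule genes was 17371 and 9990 on those numbered 1 (TCDD, dioxane), 3127 and 959 on those numbered 2 (TCDD, dioxane), and 454 and 510 in thymocytes (TCDD, dioxane). The summed level of 12 genes of the double-negative T lineage ran the other way, at 997 and 1196 on those numbered 1 (TCDD, dioxane), 5186 and 10764 on those numbered 2 (TCDD, dioxane), and 5335 and 11758 in thymocytes (TCDD, dioxane). Of these 12 genes, 7 and 9 were above the bacterial controls on those numbered 1 (TCDD, dioxane), 10 and 12 on those numbered 2 (TCDD, dioxane), and 11 and 12 in thymocytes (TCDD, dioxane). Rag1, which cuts the T cell receptor genes during their assembly, had 4.03 and 3.61 in TCDD emigrants 1 and 2, 3.72 and 9.99 in dioxane emigrants 1 and 2, 7.00 in TCDD thymocytes and 9.70 in dioxane thymocytes, and was thus detected on 1 of the 4 emigrant arrays, dioxane 2. Between the sources, the 3′ minus 5′ difference of the Gapdh control probe sets, a sign of RNA integrity and amplification, was 5.60 and 4.75 in TCDD emigrants 1 and 2, 4.75 and 4.69 in dioxane emigrants 1 and 2, 5.86 in TCDD thymocytes and 6.10 in dioxane thymocytes, so that TCDD 1 lay nearer to the thymocytes. The same difference for the actin control probe sets was 3.77 and 3.36 in TCDD emigrants 1 and 2 and 3.06 and 3.01 in dioxane emigrants 1 and 2. It was 4.15 in TCDD thymocytes and 3.48 in dioxane thymocytes, so the sources overlapped on that control. The part of all these in the results below was not tested.

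In all, 9 of the 10 macrophage genes were detected on all 4 emigrant arrays and 1, Cd163, on the arrays numbered 1 alone. The background share for the first pattern was 55.3% of all genes, and for the second 0.516%. Taken against the thymocytes, the 9 genes other than Cd163 were higher on every emigrant array than on either thymocyte array, a pattern that 5.46% of all genes showed. Summed over the 10 genes, the linear level was 14044 and 6136 in TCDD emigrants (numbers 1 and 2), 13898 and 2021 in dioxane emigrants (numbers 1 and 2), 485 in TCDD thymocytes and 524 in dioxane thymocytes. Cd163, Mrc1 and Apoe lay below the bacterial controls on both thymocyte arrays. The other genes lay above them on both, but on the dioxane array C1qc by only 0.03 and C1qa by 0.34. In bulk RNA, fewer cells of a type and less RNA per cell cannot be told apart.

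**Figure D1:**
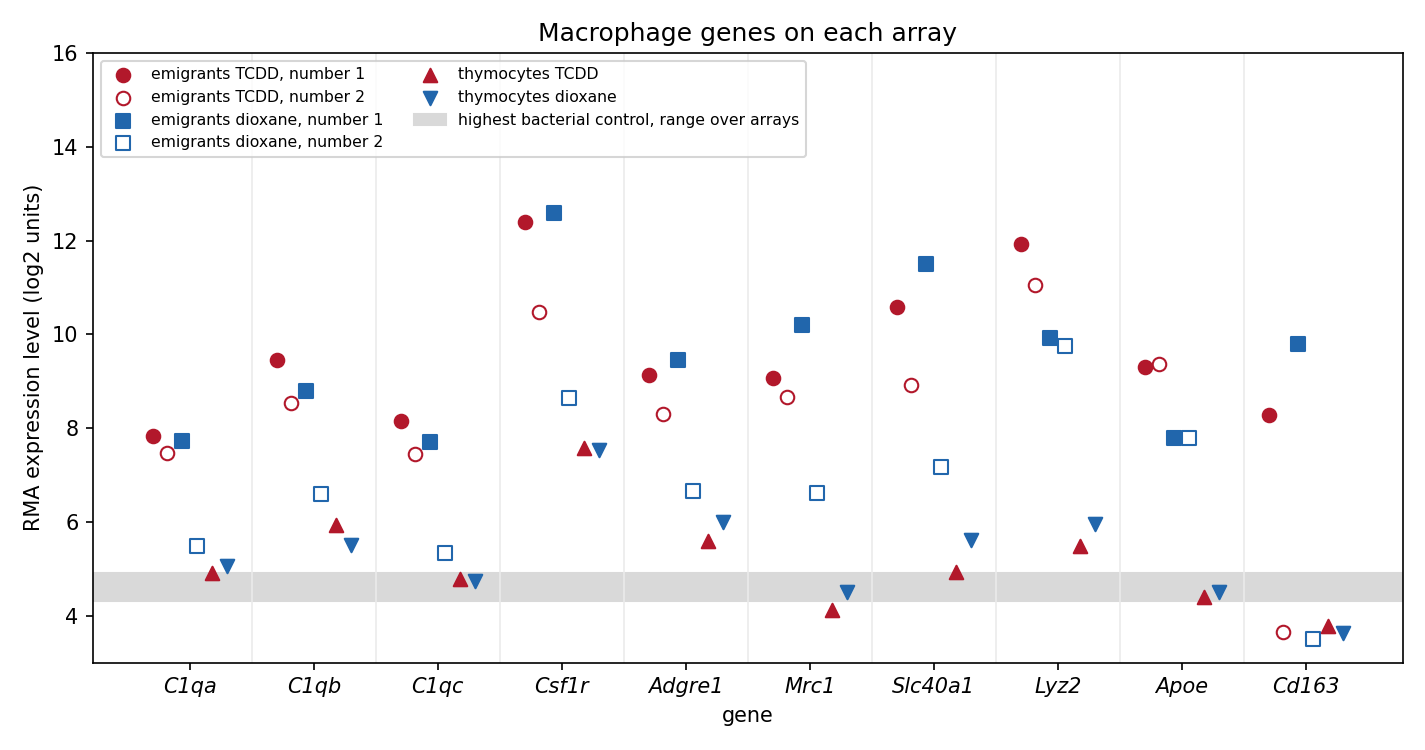
RMA expression level (log2 units, vertical axis) of the 10 macrophage genes (horizontal axis) on each of the 6 arrays, 1 point per array, with a grey band for the range of the highest bacterial control over the arrays (4.32 to 4.92). Emigrant points lie above both thymocyte points for every gene except Cd163, which is high on the arrays numbered 1 alone.

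The 3 chains of C1q, the protein that starts the classical complement pathway, moved together across the arrays. C1qa had 7.82 and 7.47 in TCDD emigrants 1 and 2, 7.73 and 5.49 in dioxane emigrants 1 and 2, 4.91 in TCDD thymocytes and 5.07 in dioxane thymocytes. C1qb had 9.46 and 8.53 in TCDD emigrants 1 and 2, 8.79 and 6.60 in dioxane emigrants 1 and 2, 5.94 in TCDD thymocytes and 5.50 in dioxane thymocytes. C1qc had 8.15 and 7.46 in TCDD emigrants 1 and 2, 7.70 and 5.34 in dioxane emigrants 1 and 2, 4.79 in TCDD thymocytes and 4.75 in dioxane thymocytes. For each chain the emigrant array labelled dioxane 2 was the lowest of the 4 emigrant arrays, and the other three emigrant arrays stood well above it. That array still lay above both thymocyte arrays, by 0.43 for C1qa, 0.66 for C1qb and 0.56 for C1qc. The 2 other probe sets of C1qb kept the same order of the 4 emigrant arrays. Both lay below the bacterial controls on both thymocyte arrays, and the dimmest also on dioxane 2, at 4.35.

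Csf1r, the receptor for the macrophage growth factors CSF1 and IL-34, had 12.39 and 10.47 in TCDD emigrants 1 and 2, 12.59 and 8.64 in dioxane emigrants 1 and 2, 7.57 in TCDD thymocytes and 7.54 in dioxane thymocytes. Adgre1, which encodes the F4/80 antigen of mouse macrophages, had 9.13 and 8.30 in TCDD emigrants 1 and 2, 9.46 and 6.66 in dioxane emigrants 1 and 2, 5.59 in TCDD thymocytes and 6.00 in dioxane thymocytes. Both receptors were highest on the arrays numbered 1, lower on TCDD 2, lower again on dioxane 2, and lowest in thymocytes. Of the 3 probe sets of Csf1r, the second brightest kept this order, while the third stayed between 4.42 and 5.04 on all arrays.

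Mrc1, the mannose receptor that takes up glycoproteins, had 9.07 and 8.66 in TCDD emigrants 1 and 2, 10.21 and 6.61 in dioxane emigrants 1 and 2, 4.12 in TCDD thymocytes and 4.51 in dioxane thymocytes. It was thus detected on every emigrant array and on neither thymocyte array. Slc40a1, which encodes the iron exporter ferroportin, had 10.58 and 8.93 in TCDD emigrants 1 and 2, 11.50 and 7.17 in dioxane emigrants 1 and 2, 4.94 in TCDD thymocytes and 5.61 in dioxane thymocytes. Mrc1 and Slc40a1 were each highest on dioxane 1 and, among the emigrants, lowest on dioxane 2. The second probe set of Slc40a1 gave 6.17 and 6.19 in TCDD emigrants 1 and 2 and 8.01 and 4.84 in dioxane emigrants 1 and 2, so on it the TCDD emigrants did not differ by number and dioxane 2 did not exceed the TCDD thymocyte array, at 5.03.

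Cd163, the receptor by which macrophages take up haptoglobin-haemoglobin complexes, was the exception. It had 8.29 on TCDD 1 and 3.66 on TCDD 2 among emigrants, 9.80 on dioxane 1 and 3.51 on dioxane 2, 3.77 in TCDD thymocytes and 3.63 in dioxane thymocytes. The arrays numbered 2 and the thymocyte arrays lay together below the bacterial controls, so Cd163 was not detected there.

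Lyz2, the lysozyme of macrophages and other myeloid cells including neutrophils, had 11.93 and 11.04 in TCDD emigrants 1 and 2, 9.93 and 9.75 in dioxane emigrants 1 and 2, 5.49 in TCDD thymocytes and 5.96 in dioxane thymocytes. Apoe, the lipid carrier apolipoprotein E, had 9.30 and 9.37 in TCDD emigrants 1 and 2, 7.79 and 7.79 in dioxane emigrants 1 and 2, 4.40 in TCDD thymocytes and 4.51 in dioxane thymocytes. For these genes the emigrants fell into TCDD and dioxane arrays, without overlap, rather than into numbers 1 and 2. Lyz1, a close copy of Lyz2 whose probes may share signal with it, had 12.60 and 12.09 in TCDD emigrants 1 and 2, 12.15 and 11.13 in dioxane emigrants 1 and 2, 8.19 in TCDD thymocytes and 8.10 in dioxane thymocytes on its brightest probe set. There dioxane 1 lay above TCDD 2, so the separation by treatment seen for Lyz2 did not hold for Lyz1.

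The next comparison asked where the macrophage genes were higher, in the cells that left the lobes or in those that stayed. Fitted with treatment in the model (limma, 4 emigrant and 2 thymocyte arrays), all 10 genes had a positive difference, with a median of 3.05 log2 units against -0.04 over all genes. Lyz2 differed by 4.94 ± 0.53 (estimate ± SE), with means of 10.66 ± 1.02 in emigrants (SD, n = 4) and 5.72 ± 0.33 in thymocytes (SD, n = 2). Mrc1 differed by 4.32 ± 0.97, Slc40a1 by 4.27 ± 1.24, Apoe by 4.11 ± 0.38 and Csf1r by 3.47 ± 1.17. C1qb differed by 2.62 ± 0.66, Cd163 by 2.61 ± 2.05, Adgre1 by 2.60 ± 0.81, C1qc by 2.39 ± 0.71 and C1qa by 2.14 ± 0.66. Mrc1, Apoe and Cd163 were not above background on either thymocyte array. With the highest bacterial control in place of the thymocyte value, emigrants were higher by at least 4.04 log2 units for Mrc1 and 3.97 for Apoe. No such bound is given for Cd163, which the emigrant arrays numbered 2 did not detect either. None of the 10 genes, and 0% of all genes, passed an adjusted p under 0.05 by limma with Benjamini-Hochberg adjustment over all 12393 genes. The lowest adjusted p by limma among all genes was that of Apoe, 0.165, and that of Lyz2 was 0.283. At an unadjusted p under 0.05, 9 of the 10 genes were higher in emigrants (all but Cd163), as were 3.20% of all genes, and 880 genes in all differed in either direction.

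With the emigrant arrays numbered 1 alone set against the thymocytes, all 10 genes passed and were higher in emigrants, as were 1.32% of all genes, with limma adjusted p between 0.00577 and 0.0244. Slc40a1 differed by 5.77 ± 0.23, Cd163 by 5.34 ± 0.43, Mrc1 by 5.32 ± 0.28, Lyz2 by 5.21 ± 0.58 and Csf1r by 4.94 ± 0.23 in that fit. Apoe differed by 4.09 ± 0.42 and C1qa, the smallest, by 2.79 ± 0.23. With the emigrant arrays numbered 2 alone, 0 of the 10 genes and 0% of all genes passed, although 2571 genes had an unadjusted p under 0.05, 7 of the 10 among them. Lyz2 still differed by 4.68 ± 0.48 and Apoe by 4.13 ± 0.47, both with a limma adjusted p of 0.0997, while Cd163, undetected on all 4 arrays of that fit, had an estimate of -0.12 ± 0.11. The bounds against background were 5.05 for Mrc1, 4.45 for Cd163 and 3.95 for Apoe with the arrays numbered 1, and 3.04 for Mrc1 and 3.99 for Apoe with those numbered 2. Both fits use the same 2 thymocyte arrays, and each has 1 residual degree of freedom before the prior is added. With 1 array for each source and treatment, that degree of freedom is the difference between the TCDD effects in emigrants and thymocytes. The SE and p of these fits rest on that difference and the prior, and hold no spread between replicate arrays. The arrays numbered 1 are also those with the high neutrophil and low T lineage sums given above.

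**Figure D2:**
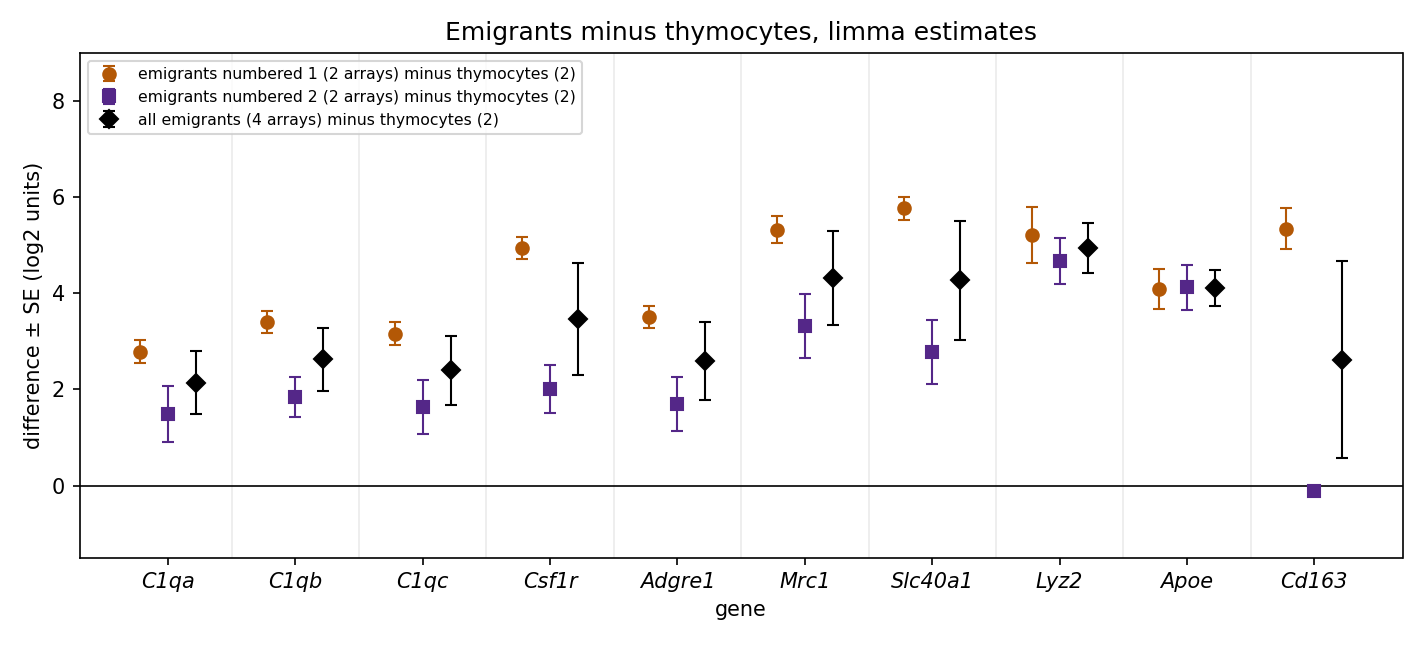
Emigrants minus thymocytes (log2 units, vertical axis) for the 10 genes, as limma estimates with bars of 1 SE, for the emigrant arrays numbered 1 (2 arrays), those numbered 2 (2 arrays) and all 4, each against the same 2 thymocyte arrays. Lyz2 and Apoe have estimates between 4.09 and 5.21 in all 3 fits, while Cd163 is at 5.34 with the arrays numbered 1 and at -0.12 with those numbered 2, where no array detected it.

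The emigrant arrays were then compared by their number. Of the 10 genes, 8 (all but Lyz2 and Apoe) were higher on both arrays numbered 1 than on either array numbered 2, a pattern that 30.6% of all genes showed. Between the TCDD arrays, 3 of the 10 genes were at least 2-fold higher on number 1 than on number 2 (3.81% of all genes), namely Cd163 by 4.63, Csf1r by 1.91 and Slc40a1 by 1.65. Between the dioxane arrays, 8 of the 10 were at least 2-fold higher on number 1 (4.71% of all genes). Those dioxane differences were 6.29 for Cd163, 4.33 for Slc40a1, 3.95 for Csf1r, 3.60 for Mrc1, 2.81 for Adgre1, 2.36 for C1qc, 2.23 for C1qa and 2.19 for C1qb. Since Cd163 was not above background on the arrays numbered 2, its differences are bounds, of at least 3.95 with TCDD and at least 5.35 with dioxane. Lyz2 differed by number by 0.88 with TCDD and 0.18 with dioxane, and Apoe by -0.06 with TCDD and -0.01 with dioxane.

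**Figure D3:**
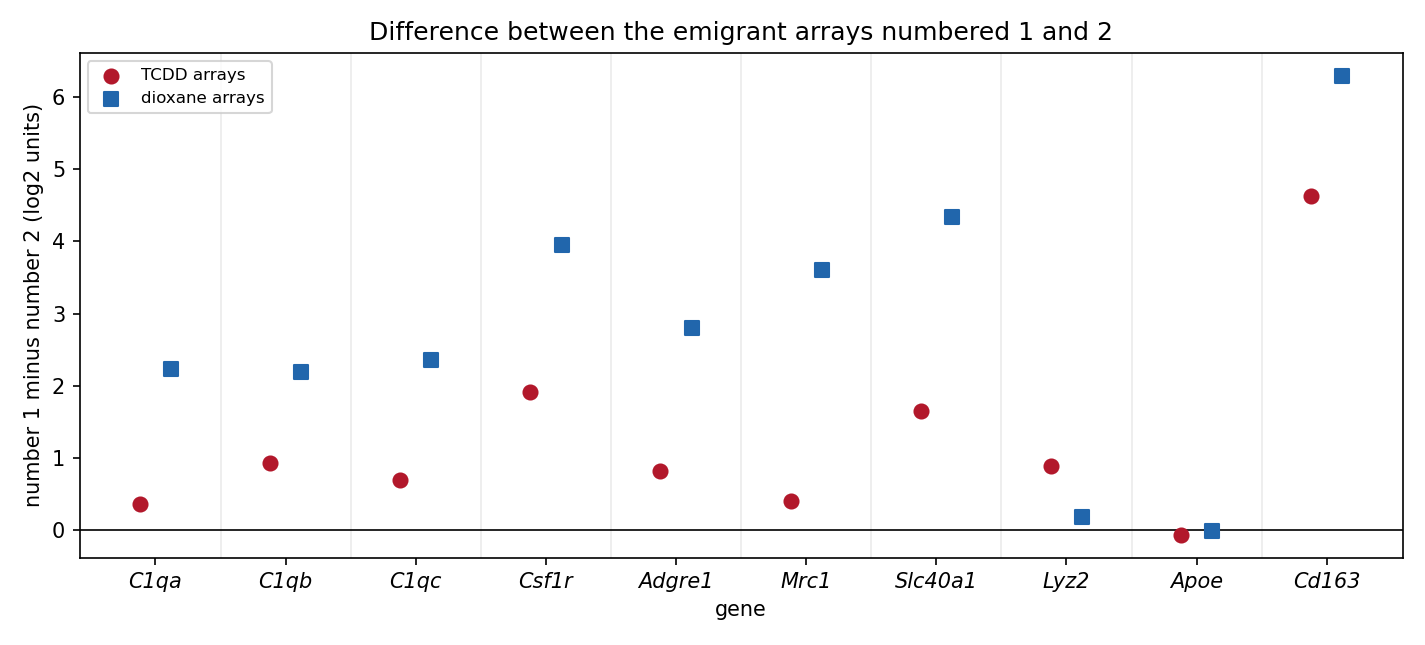
Number 1 minus number 2 (log2 units, vertical axis) for the 10 genes, with a circle for the TCDD emigrant arrays and a square for the dioxane emigrant arrays, 1 difference of 2 arrays per point. The dioxane difference lies above the TCDD difference for 9 genes, all but Lyz2, and for Apoe both are close to 0, at -0.06 with TCDD and -0.01 with dioxane.

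Fitted with treatment in the model, the difference between numbers 1 and 2 had a median of 1.69 over the 10 genes, against 0.04 over all genes. Cd163 differed by 5.46 ± 0.46, with a limma adjusted p of 0.0831, and none of the 10 genes and 0% of all genes passed. Against the background of the arrays numbered 2, Cd163 was higher on those numbered 1 by at least 4.65. At an unadjusted p under 0.05, 6 of the 10 were higher on number 1, as were 6.98% of all genes, and 2118 genes differed in either direction. With other settings of the same fit Cd163 passed, with limma adjusted p of 0.0293 after cyclic loess, 0.0206 after quantile normalisation and 0.0369 with an intensity trend in the prior. Slc40a1 differed by 2.99 ± 0.70, Csf1r by 2.93 ± 0.55, Mrc1 by 2.00 ± 0.83, Adgre1 by 1.82 ± 0.53, C1qb by 1.56 ± 0.37, C1qc by 1.53 ± 0.46 and C1qa by 1.29 ± 0.51. Lyz2 differed by 0.53 ± 0.26, and Apoe by -0.04 ± 0.19, an estimate that turned to 0.14 after cyclic loess and 0.11 after quantile normalisation.

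The question of the study, what TCDD does, was taken first within each pair of arrays, TCDD minus dioxane, with 1 array on each side and therefore no test. Within the emigrant pair numbered 2, all 10 genes were higher with TCDD and 9 of the 10 were so by at least 2-fold, against 3.43% of all genes. The differences were 2.12 for C1qc, 2.06 for Mrc1, 1.97 for C1qa, 1.93 for C1qb, 1.83 for Csf1r, 1.76 for Slc40a1, 1.65 for Adgre1, 1.57 for Apoe and 1.29 for Lyz2, with 0.15 for Cd163, which neither array of that pair detected. The 2 arrays of that pair also differed in markers of other cells: the T lineage sum was 5186 on TCDD 2 and 10764 on dioxane 2, the neutrophil sum 3127 and 959, and the summed level of 10 stroma and endothelium genes 1495 and 267. Of the 12 T lineage genes 9 were lower on TCDD 2 and 3 were higher. The largest differences were -6.38 for Rag1 and -6.36 for Dntt, which also had -2.70 and -3.25 between the thymocyte arrays. The T lineage sum thus follows these genes more than the whole list. The part of these markers in the differences of that pair was not tested. Within the pair numbered 1 the same genes divided. Lyz2 was higher with TCDD by 2.00 and Apoe by 1.52, the 2 of the 10 that were at least 2-fold higher (3.66% of all genes). C1qb was higher by 0.67, C1qc by 0.44 and C1qa by 0.09. Cd163 at -1.51 and Mrc1 at -1.14 were the 2 of the 10 that were at least 2-fold lower (2.56% of all genes). Slc40a1 had -0.92, Adgre1 -0.34 and Csf1r -0.20, while the neutrophil sum was 17371 on TCDD 1 and 9990 on dioxane 1. The median over the 10 genes was -0.05 in the pair numbered 1 and 1.79 in the pair numbered 2, against -0.02 over all genes in each.

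In thymocytes none of the 10 genes differed by 2-fold in either direction, while 2.83% of all genes were at least 2-fold higher and 2.79% at least 2-fold lower with TCDD. The thymocyte differences ran between -0.67 for Slc40a1 and 0.44 for C1qb, with a median of -0.13. Cd163, Mrc1 and Apoe were below background on both thymocyte arrays, so their differences there have no direction. The second probe set of Slc40a1 had 0.28 there, of the opposite sign, and in emigrants it had -1.84 in the pair numbered 1 and 1.35 in the pair numbered 2. Thus 5 of the 10 genes, C1qa, C1qb, C1qc, Lyz2 and Apoe, were higher with TCDD in both emigrant pairs, as were 23.3% of all genes. The other five, Csf1r, Adgre1, Cd163, Mrc1 and Slc40a1, were lower with TCDD in the pair numbered 1 and higher in the pair numbered 2, as were 21.9% of all genes. For 9 of the 10 (all but Lyz2) the difference was the larger in the pair numbered 2, the same 9 as in the comparison by number, since both are differences of the same 4 values, as for 51.0% of all genes. The sign of every emigrant difference was the same after cyclic loess, median centring and quantile normalisation.

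**Figure D4:**
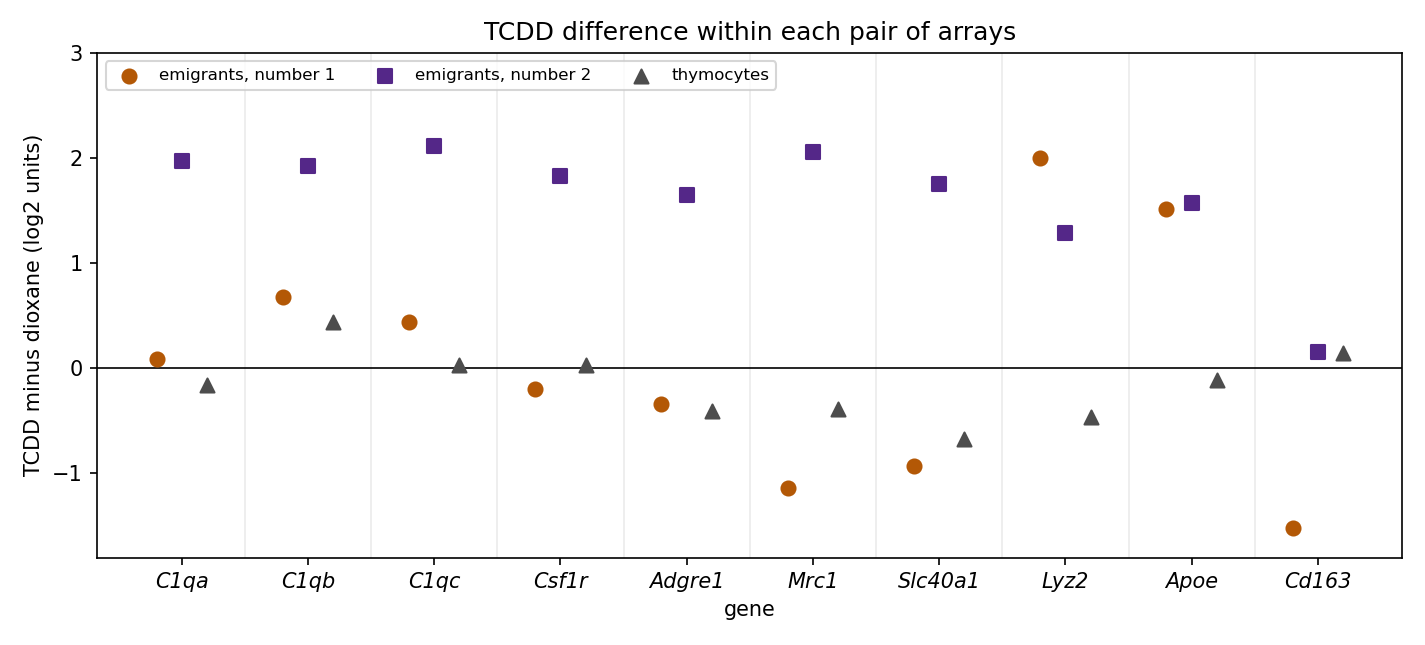
TCDD minus dioxane (log2 units, vertical axis) for the 10 genes within the emigrant pair numbered 1, the emigrant pair numbered 2 and the thymocyte pair, each point the difference of 2 single arrays. Lyz2 and Apoe are over 1 in both emigrant pairs, 7 genes are over 1 in the pair numbered 2 alone, and the thymocyte differences lie between -0.67 and 0.44.

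Only Lyz2 and Apoe had both TCDD emigrant arrays above both dioxane emigrant arrays, 2 of the 10 genes, against 10.5% of all genes. Apoe had means of 9.34 ± 0.045 with TCDD and 7.79 ± 0.0052 with dioxane (SD, n = 2 each) and differed by 1.55 ± 0.22 (SE), with an unadjusted limma p of 0.0013. Lyz2 had means of 11.49 ± 0.63 with TCDD and 9.84 ± 0.12 with dioxane (SD, n = 2 each) and differed by 1.64 ± 0.37 (SE), with an unadjusted limma p of 0.0080. C1qb differed by 1.30 ± 0.81, C1qc by 1.28 ± 0.84, C1qa by 1.03 ± 0.78 and Csf1r by 0.82 ± 1.46. Adgre1 differed by 0.65 ± 0.99, Mrc1 by 0.46 ± 1.21, Slc40a1 by 0.42 ± 1.54 and Cd163 by -0.68 ± 2.58. In this fit of 4 arrays the limma adjusted p was 1.00 for each of the 10 genes, and 0% of all genes passed. At an unadjusted p under 0.05, Apoe and Lyz2 were the 2 of the 10 that were higher with TCDD, as were 1.24% of all genes, and 255 genes differed in either direction. The median over the 10 genes was 0.92, against -0.02 over all genes, and it turned to -0.42 when the emigrant array labelled dioxane 2 was left out. Without the emigrant array labelled TCDD 1, Apoe differed by 1.58 and Lyz2 by 1.20, while Csf1r turned to -0.14 and Slc40a1 to -0.41.

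Over both cell sources, with source in the model, the median TCDD difference of the 10 genes was 0.59, and none of them and 0% of all genes passed. Apoe differed by 0.99 ± 0.36, with a limma adjusted p of 0.903 and the single unadjusted p under 0.05 among the 10, against 2.69% of all genes that were higher at that threshold. In all, 659 genes had an unadjusted p under 0.05 in either direction. Without both emigrant arrays numbered 1 the median was 0.78, with Apoe at 0.73 and Lyz2 at 0.41, and without both arrays numbered 2 it was -0.06, with Apoe at 0.70 and Lyz2 at 0.77. These 2 fits were chosen after seeing the data. The same emigrant arrays enter every comparison above, so the comparisons do not bear on one another independently.

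Whether TCDD acted differently in emigrants and thymocytes was tested as an interaction of treatment and cell source over the 6 arrays. This test was chosen after seeing the data. Apoe lay below the bacterial controls on both thymocyte arrays. Its thymocyte effect was thus not measured, and the difference given for it has a measured side in emigrants only. The difference between the effects was 2.11 ± 0.64 for Lyz2 and 1.66 ± 0.38 for Apoe, with unadjusted limma p of 0.024 and 0.0090, and it was 1.19 ± 1.34 for C1qa. Every limma adjusted p was 1.00, and 0% of all genes passed, while 0.783% of all genes had an unadjusted p under 0.05. Without the emigrant array labelled TCDD 1 the difference was 1.67 ± 0.56 for Lyz2, 1.69 ± 0.54 for Apoe and 1.01 ± 1.54 for C1qa, and 0 genes passed (104 at an unadjusted p under 0.05).

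The other genes of the same pathways were read from lists of named genes. No gene of any of these lists passed the adjusted p in any of the 4 comparisons. Of 21 measured among 23 other macrophage genes, 18 had a positive difference between emigrants and thymocytes (median 1.42). Cd68, a lysosomal protein of phagocytes, differed by 3.76 ± 0.55, Msr1, a scavenger receptor, by 2.31 ± 0.48, and Cd5l, a protein secreted by tissue macrophages, by 2.29 ± 1.76. Cd68 had 8.69 and 9.54 in TCDD emigrants 1 and 2, 8.56 and 7.26 in dioxane emigrants 1 and 2, 4.57 in TCDD thymocytes and 4.94 in dioxane thymocytes, so every emigrant array exceeded both thymocyte arrays, as for 5.46% of all genes. Without the array labelled TCDD 1, Cd68 differed by 3.83, Msr1 by 2.33 and Cd5l by 1.38. Cd5l instead had 9.65 and 5.22 in TCDD emigrants 1 and 2, 10.41 and 5.35 in dioxane emigrants 1 and 2, 5.40 in TCDD thymocytes and 5.33 in dioxane thymocytes. Like Cd163 it was high on the arrays numbered 1 alone, and its difference by number was 4.75 ± 0.25, with a limma adjusted p of 0.053. By number, 16 of the 21 were higher on number 1 (median 0.77), and 10 had an unadjusted p under 0.05, against 6648 and 865 of all 12393 genes (6.98% at that p).

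For the partners of Apoe in lipid transport, 9 of 10 measured genes of 12 had a positive difference between emigrants and thymocytes (median 0.45). Cd36, a fatty acid and lipoprotein receptor, differed by 3.63 ± 0.56 (at least 2.97 against the background of the thymocyte arrays, where it was not detected), Abca1, the cholesterol exporter that loads apolipoprotein E, by 2.33 ± 0.26, and Lipa, the lysosomal lipase, by 1.66 ± 0.50. With TCDD in emigrants 8 of the 10 were higher (median 0.49). Cd36 differed there by 1.40 ± 0.45, Lpl, the lipoprotein lipase, by 1.40 ± 0.44, and Abca1 by 0.93 ± 0.32, and these 3 were the ones with an unadjusted p under 0.05, against 1.24% of all genes. Without the array labelled TCDD 1, Cd36 differed by 1.96, Lpl by 1.88 and Abca1 by 1.22, and 6 of the 10 were higher (median 0.45). Cd36 had 7.70 and 8.82 in TCDD emigrants 1 and 2, 7.08 and 6.63 in dioxane emigrants 1 and 2, 3.59 in TCDD thymocytes and 4.27 in dioxane thymocytes. As for Apoe and Lyz2, its TCDD emigrant arrays did not overlap with its dioxane emigrant arrays, as for 10.5% of all genes.

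Among 7 measured of 10 complement partners of C1q, 2 had a positive difference between emigrants and thymocytes (median -0.09). C3ar1, the receptor for the complement fragment C3a, differed by 2.03 ± 0.70, with 7.79 and 9.39 in TCDD emigrants 1 and 2, 5.93 and 7.17 in dioxane emigrants 1 and 2, 5.55 in TCDD thymocytes and 5.53 in dioxane thymocytes. It was higher with TCDD in both emigrant pairs and, unlike C1q, higher on number 2 than on number 1 with each treatment. C1s1, a protease that works with C1q, was lower in emigrants by an estimate of -1.58. The 6 genes of the CSF ligands and related receptors had a median of 0.28 between emigrants and thymocytes and of 0.06 by number. Of 11 measured among 13 iron and heme genes, 9 had a positive difference between emigrants and thymocytes (median 0.29). Hp, which encodes haptoglobin, the ligand taken up through CD163, differed by 2.86 ± 0.21 between numbers 1 and 2, with 9.55 and 6.50 in TCDD emigrants 1 and 2, 7.77 and 5.10 in dioxane emigrants 1 and 2, 5.22 in TCDD thymocytes and 4.93 in dioxane thymocytes. Hp was thus higher on both arrays numbered 1 than on either numbered 2. Neutrophils also express Hp.

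Markers of other cell types moved with the number of the array as well. All 11 measured neutrophil granule genes of 12 were higher on number 1 (median 3.41), as were 4 of 5 monocyte genes (median 3.29) and 6 of 7 measured erythroid genes of 9 (median 1.69), while all 12 measured T lineage genes of 14 were lower (median -2.51). The summed monocyte level was 7021 and 6048 on those numbered 1 (TCDD, dioxane), 1162 and 2074 on those numbered 2 (TCDD, dioxane), and 2492 and 2085 in thymocytes (TCDD, dioxane). Plac8, at 10.83 on dioxane 2 and 11.16 and 10.94 in thymocytes (TCDD, dioxane), made up most of the sum there. The median of the 5 monocyte genes was 9.62 and 9.24 on those numbered 1 (TCDD, dioxane). It was 6.57 and 6.13 on those numbered 2, and 5.78 and 4.68 in thymocytes, in the same order. Dendritic cell genes, 9 measured of 11, had a median difference by number of 0.31 and summed levels between 892 and 2449 in emigrants and between 554 and 1631 in thymocytes. With TCDD in emigrants all 11 neutrophil granule genes had a positive difference (median 1.15), as Lyz2 did, and without the array labelled TCDD 1 the median was -0.53, with 4 of the 11 positive. The part of these cells in the macrophage gene differences was not tested.

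The genes whose pattern over the 6 arrays was most like the mean of the 10 macrophage genes were Clec4a2, Ctsh, Creg1, Lamp2 and Mpeg1, with Pearson correlations of 0.999, 0.996, 0.992, 0.989 and 0.988 among 3229 genes ranked. These are correlations over 6 arrays that include both cell sources, given as a description of likeness. Mpeg1, a pore-forming protein of macrophages, had 11.33 and 10.54 in TCDD emigrants 1 and 2, 11.57 and 9.07 in dioxane emigrants 1 and 2, 7.45 in TCDD thymocytes and 6.87 in dioxane thymocytes. Clec4a2, a C-type lectin receptor of myeloid cells, had 8.67 and 7.45 in TCDD emigrants 1 and 2, 8.53 and 6.22 in dioxane emigrants 1 and 2, 4.99 in TCDD thymocytes and 4.95 in dioxane thymocytes. For both, as for Csf1r and the C1q chains, dioxane 2 was the lowest emigrant array and still above the thymocytes. Ctsh, Creg1 and Lamp2 had that order too. Since all of them were picked by likeness to the members over the same arrays, the shared order follows from the choice. Among the members themselves, Apoe and Lyz2 were close to each other and far from Cd163: the correlation was 0.99 for Apoe with Lyz2 and 0.41 for Apoe with Cd163, against 1.00 for C1qa with C1qc, over the same 6 arrays.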

How the data were processed

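RNA of CD4-CD8- emigrants and thymocytes was hybridised to 6 Affymetrix arrays. The deposited values are log2 RMA summaries of the authors, per the submitters' processing notes, and the series design names the Bioconductor affy package; RMA corrects background, normalises across arrays and gives no detection call. Versions: not given in the sources used here. The number of arrays limits the precision. RMA understates the fold changes of dim genes.

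Of 22690 probe sets, 64 controls were left out, and 691 with several gene symbols and 1555 with none were not used by gene. The other 20380 measured 12393 genes (several probe sets for 4956), and the brightest on average stood for its gene. Gene symbols come from GEO's platform annotation. Linear models were fitted to the log2 values as deposited with limma 3.58.1 in R 4.3.3 (lmFit, eBayes), adjusted by Benjamini-Hochberg over all genes, at an adjusted p under 0.05, and the code was tested on simulated data. A lone thymocyte array is assumed to vary like the others. The 10 genes and the lists were chosen with earlier results of these data known. All 10 were named, then list genes past the threshold or among the 3 largest differences of a list and comparison, and the 5 non-member genes most correlated with the members' mean (genes with a range of at least 1 log2 unit and a mean at or above the median gene). Other normalisations, filters, priors and probe set rules, left-out arrays and the array number as a block were tried.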

Additional observations from a re-analysis of the deposited data

Results flagged for a closer look

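For C1qa, Lyz2 and Apoe, TCDD minus dioxane was positive in both emigrant pairs and negative in thymocytes. The share of all genes with this pattern was not counted, and 23.3% of all genes were higher in both emigrant pairs. For C1qa the difference in the pair numbered 1 was only 0.09, and its emigrant estimate turned to -0.085 without dioxane 2. The difference between the effects in emigrants and thymocytes was 1.192 log2 units for C1qa, 2.108 for Lyz2 and 1.656 for Apoe. By the limma interaction test over 6 arrays none of the 3 passed, with an adjusted p of 1.00 each. The thymocyte differences rest on 1 array each and were -0.16 for C1qa, -0.46 for Lyz2 and -0.11 for Apoe, and Apoe lay below the bacterial controls in both thymocyte arrays, so the sign of its thymocyte difference is not measured.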

How the results depend on the processing

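With no detection calls, 1 array per thymocyte group and 2 per emigrant group, small differences cannot be told from the spread between arrays. The cause of the changes below was not tested. The fits with the emigrant arrays numbered 1 alone or 2 alone hold no replicate arrays of the same source and treatment.

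For TCDD against dioxane in emigrants, leaving out 1 array at a time moved the median of the 10 genes between -0.42 (without dioxane 2) and 2.33 (without dioxane 1), C1qa between -0.085 and 2.15, Csf1r between -1.16 and 2.79, Adgre1 between -0.75 and 2.06, Cd163 between -3.83 and 2.47, Mrc1 between -1.34 and 2.26 and Slc40a1 between -1.75 and 2.58. C1qb, C1qc, Lyz2 and Apoe kept their sign in these fits, with Apoe between 1.51 and 1.58. Over both sources the same step gave -0.36 to 1.17 for the median, -0.12 to 1.16 for C1qa, -0.65 to 1.61 for Csf1r, -0.60 to 1.00 for Adgre1, -2.13 to 1.47 for Cd163, -0.93 to 1.12 for Mrc1 and -1.29 to 1.19 for Slc40a1. There, without both emigrant arrays numbered 2 (chosen after seeing the data), the median was -0.059, C1qa -0.033, Csf1r -0.084, Adgre1 -0.37, Mrc1 -0.76 and Slc40a1 -0.80, and without both numbered 1 Cd163 was 0.15. With the mean of all probe sets Slc40a1 was -0.0083 over both sources.

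For emigrants against thymocytes, the arrays numbered 1 alone gave 225 genes past the threshold, 10 of the 10 macrophage genes and a median of 4.51, and those numbered 2 alone gave -0.12 for Cd163. Leaving out 1 array at a time gave 0 to 7 genes and 0 to 1 of the 10 (Mrc1, without dioxane 2, limma adjusted p 0.0329), and medians between 2.45 and 4.06. For number 1 against number 2, no gene passed as fitted, and 105 passed after cyclic loess, 133 after quantile normalisation, 45 with an intensity trend, 20 when dimmer genes were filtered out, 17 with the mean of all probe sets, 75 at an adjusted p under 0.10 and 8 with no covariate. Of the 10 genes 1, Cd163, passed with cyclic loess, quantile normalisation, the trend and the looser threshold. Apoe there turned to 0.14 after cyclic loess and 0.11 after quantile normalisation. Leaving out an array in that fit leaves no residual degree of freedom, so it gave medians (0.85 to 2.58) and no test.

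With the array number as a replicate block, 0 genes passed in emigrants and the median stayed 0.92, with Apoe at an adjusted p of 0.648 by limma. With the 3 pairs as a replicate block over both sources 0 genes passed and the median stayed 0.59, with Apoe at 0.464. The deviations of arrays with the same number from their group means had r = 0.56. With 2 arrays a group this is 1 value for both numbers. The labels tie the arrays numbered 2 by no more than the number, and the label of dioxane 1 gives none. In all, 629 of 693 values recomputed under an alternative were counted as unchanged. For single genes this meant the same direction and side of the threshold, whatever the size of the difference. For counts and medians it meant a shift within an allowance, which was wide for medians. The median of TCDD against dioxane in emigrants, 0.92, counted as unchanged at 0.54 without TCDD 1 and at 2.33 without dioxane 1. In the TCDD comparisons no gene passed under any setting, so keeping the side of the threshold says little there. With the median gene of each array in place of the bacterial controls, the 9 genes other than Cd163 were again above the limit on 4 of 4 emigrant arrays and Cd163 on 2.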
